A study of Mus musculus with 96 samples.

Results

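The C/EBP family is taken here as Cebpa, Cebpb, Cebpd, Cebpe and Cebpg, which encode C/EBPα, C/EBPβ, C/EBPδ, C/EBPε and C/EBPγ. These 5 genes were taken by symbol from the 23955 genes of the deposited expression table, and all 5 were found. They were described in 96 single cells of ThPOK-/- mice, by the cell state that the authors gave each cell.

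The proteins of this family bind DNA as dimers through a basic leucine zipper (bZIP). In mouse bone marrow C/EBPα is required to form granulocyte-monocyte progenitors (GMP) from earlier myeloid progenitors, C/EBPε for the late steps of granulocyte maturation and for secondary granule genes, and C/EBPβ for the granulocyte output that infection and cytokines call for. C/EBPδ is known as an inducible member in inflammation, and C/EBPγ, which lacks an activation domain of its own, pairs with other bZIP proteins, among them ATF4 of the amino acid response.

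All cells came from C57BL/6 bone marrow of 1 genotype, in which Zbtb7b, the gene of the zinc finger factor ThPOK, is knocked out. They were enriched for CD117 (the receptor Kit), sorted by flow cytometry as what the labels call modified GMP, captured on a Fluidigm C1 chip and sequenced from SMARTer cDNA in Nextera XT libraries. No animal is named, so the cells count as 1 sample, and differences between groups of cells are descriptions without a test. Wild-type cells were not analysed here. By the deposited states, 12 cells were proNeu-1, 31 were IG2 and 26 were Multi-Lin-1, and 27 had no state. What these names stand for beyond their wording, and how the states were made, is not given in the sources used here. The states were probably drawn from the same expression values, so levels by state describe the states.

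Expression is given as TPM, the abundance of a transcript per unit of its length with every cell scaled to one sum, or as log2(TPM + 1). Detection required a TPM of at least 1. TPM keeps no read depth, and the number of genes detected stands in for it. That number had a median of 4127.5 in proNeu-1, 3940 in IG2, 2613 in cells without a state and 2950 in Multi-Lin-1 cells, and ranged from 1019 to 5203 over all cells. Of the genes of the GMP gate, Kit was detected in 67 cells, Cd34 in 73 and Fcgr3, the Fcγ receptor used to sort GMP, in 56. Fcgr3 was detected in 12 of 12 proNeu-1, 24 of 31 IG2, 14 of 27 cells without a state and 6 of 26 Multi-Lin-1 cells. Il7r, a lymphoid progenitor marker that a GMP gate leaves out, was detected in 0 cells (a count of 0 of 96 leaves room for 3.12%). Ly6a (Sca-1), which the same gate usually leaves out, was detected in 12 of 12 proNeu-1 cells and in 0 of 26 Multi-Lin-1 cells. Cd34 was detected in 22 of the 26 Multi-Lin-1 cells.

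The 5 genes lie on 4 chromosomes. In the GENCODE annotation of the mouse build GRCm38, Cebpa (ENSMUSG00000034957) spans chr7:35119293-35121928 on the plus strand, and Cebpg (ENSMUSG00000056216) spans chr7:35046422-35056573 on the minus strand, so the gap between this divergent pair is 62719 bases. Cebpb (ENSMUSG00000056501) spans chr2:167688915-167690418 on the plus strand, Cebpd (ENSMUSG00000071637) spans chr16:15887286-15891031 on the plus strand, and Cebpe (ENSMUSG00000052435) spans chr14:54710360-54712174 on the minus strand. The single annotated transcript of Cebpb has 1 exon, and that of Cebpe has 2. Among the 80855 deposited splicing events, 0 belonged to these 5 genes. Except for Cebpe, each member shares bases with an annotated gene on the opposite strand: Gm45091 for Cebpa, Tmem189 for Cebpb, Spidr for Cebpd and Gm45095 for Cebpg. Whether reads were assigned by strand is not given in the sources used here, so reads from such a pair cannot be told apart. Tmem189 was detected in 5 cells, of which 1 was among the 18 cells with Cebpb. Spidr was detected in 14 cells, of which 1 was among the 17 cells with Cebpd.

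Promoter sequences from RefSeq (build GRCm38.p6) were matched for 3 of the 5 genes: Cebpa, Cebpb and Cebpg. The 200 bases before each start are shown for these 3, which differ in the motifs found. A relation between these motifs and the detection of the genes was not tested. Capitals mark the motifs that a search of both strands of the 250 bases before the start found. The first motif was TATAAA, the TATA box. The next was CCAAT, the CCAAT box, which reads as its reverse complement in both Cebpg matches. Another was TGACG, the core of the cAMP response element that ATF and CREB factors bind, and its match farthest from the Cebpb start reads as the reverse complement. The last was TTGCG, one arm of the palindromic C/EBP site.
Cebpa, chr7:35119093-35119292, plus strand: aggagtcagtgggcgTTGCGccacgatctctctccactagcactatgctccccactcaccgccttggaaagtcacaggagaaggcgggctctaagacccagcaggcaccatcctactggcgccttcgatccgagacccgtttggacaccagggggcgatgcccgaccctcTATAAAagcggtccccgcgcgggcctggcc
Cebpb, chr2:167688715-167688914, plus strand: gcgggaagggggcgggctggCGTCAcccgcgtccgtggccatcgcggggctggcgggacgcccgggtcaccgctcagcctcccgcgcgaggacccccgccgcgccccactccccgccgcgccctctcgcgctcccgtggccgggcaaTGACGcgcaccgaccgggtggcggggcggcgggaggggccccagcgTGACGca
Cebpg, chr7:35056567-35056766, minus strand: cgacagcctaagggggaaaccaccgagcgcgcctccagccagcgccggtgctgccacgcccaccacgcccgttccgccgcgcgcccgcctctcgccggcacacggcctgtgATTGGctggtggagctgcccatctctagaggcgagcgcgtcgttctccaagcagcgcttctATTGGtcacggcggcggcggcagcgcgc

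In the Cebpa promoter the TATA box lay at positions -30 to -25 from the start and the C/EBP arm TTGCG at -185 to -181. TATAAA was present in 8.12% of 27025 promoters of the same length and TTGCG in 14.6%. The Cebpb promoter held TGACG at -180, -53 and -7, a motif found in 17.9% of promoters. The Cebpg promoter held the CCAAT box at -89 and -28, and 34.5% of promoters held at least 1. The GC content of the 250 bases was 66.4% for Cebpa, 81.6% for Cebpb and 70.8% for Cebpg, against a median of 52% over all promoters. These matches describe the letters in the window and do not show that a factor binds there.

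Each family member was detected in a minority of the 96 cells. Cebpe was detected in 28 cells (29.2%, exact Clopper-Pearson 95% interval 20.3 to 39.3%), Cebpa in 20 (20.8%, 13.2 to 30.3%), Cebpb in 18 (18.8%), and Cebpd and Cebpg in 17 each (17.7%, 10.7 to 26.8%). Intervals cover the counting of cells in this 1 sample only, and reads are PCR copies without molecular identifiers. The intervals of the 5 shares overlap. Where a gene was detected, its median level was 43.7 TPM for Cebpe, 16.3 TPM for Cebpg, 9.23 TPM for Cebpa, 7.74 TPM for Cebpd and 2.33 TPM for Cebpb. Averaged over all cells on the log2(TPM + 1) scale, Cebpe stood at 1.67, Cebpa at 0.93, Cebpg at 0.85, Cebpd at 0.59 and Cebpb at 0.46. Among the 8044 genes detected in at least 10% of cells, all 5 members included, the mean of Cebpe stood at percentile 52.9 and that of Cebpb at percentile 3.13. At a level of 30 TPM or more, Cebpe remained in 17 cells, Cebpa in 8, Cebpg in 7, and Cebpb and Cebpd in 1 each. Tbp, which encodes a general transcription factor that all cells use, was itself detected in 30 of 96 cells, so a value listed at 0 does not show that a transcript was absent.

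**Figure D1:**
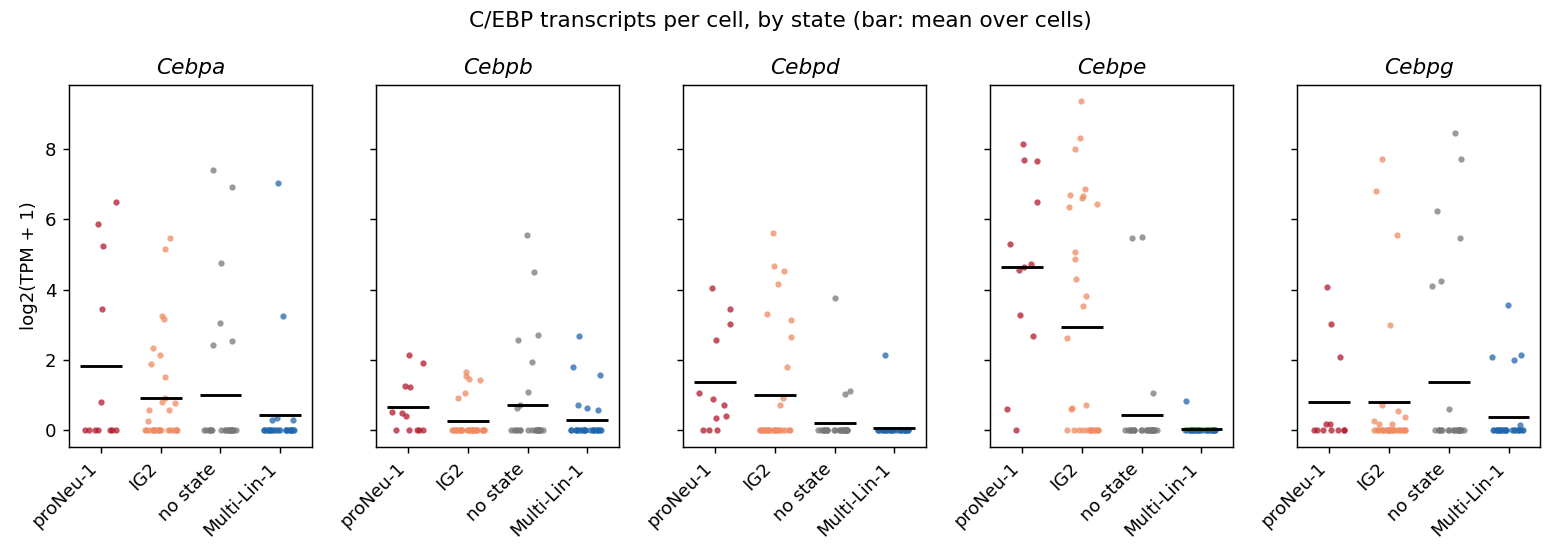
Level of each C/EBP gene in every cell, as log2(TPM + 1) on the vertical axis, with cells grouped on the horizontal axis by deposited state (proNeu-1 n = 12, IG2 n = 31, no state n = 27, Multi-Lin-1 n = 26) and the mean as a bar. The points of Cebpe stood highest in proNeu-1 and IG2, its means being 4.65 for proNeu-1 cells, 2.95 for IG2 cells and 0.03 for Multi-Lin-1 cells.

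Cebpe showed the widest spread of levels among the states, as the plot of levels per cell shows. In proNeu-1 cells its lowest, median and highest levels were 0, 24.7 and 279 TPM. In IG2 cells they were 0, 0.66 and 653 TPM, in cells without a state 0, 0 and 44.1 TPM, and in Multi-Lin-1 cells 0, 0 and 0.77 TPM. The proNeu-1 and IG2 ranges overlapped, and no Multi-Lin-1 cell reached the level of detection. Cebpe was detected in 10 of 12 proNeu-1 cells (83.3%, interval 51.6 to 97.9%), 15 of 31 IG2 cells (48.4%, 30.2 to 66.9%) and 3 of 27 cells without a state (11.1%, 2.35 to 29.2%). It was detected in 0 of 26 Multi-Lin-1 cells, with a Clopper-Pearson upper limit of 13.2% and a limit of 11.5% by the rule of 3 counts, which is the limit used for other counts of 0. Of the 8044 genes, 1.67% were detected in 0 Multi-Lin-1 cells, and 0.336% were so and in at least 50% of proNeu-1 cells, as Cebpe was.

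On the log2(TPM + 1) scale Cebpe averaged 4.65 ± 2.66 in proNeu-1, 2.95 ± 3.24 in IG2, 0.45 ± 1.47 in cells without a state and 0.03 ± 0.16 in Multi-Lin-1 cells (SD over cells, n = 12, 31, 27 and 26). The difference was 4.62 for proNeu-1 minus Multi-Lin-1 and 2.92 for IG2 minus Multi-Lin-1. These stood at percentiles 99.1 and 97.5 of the 8044 genes, whose median differences were 0.52 and 0.53. For proNeu-1 minus IG2 the Cebpe difference was 1.70, smaller than the SD within either state, and for no state minus Multi-Lin-1 it was 0.41. In order of level, neighbouring states of Cebpe from proNeu-1 through IG2 to no state to Multi-Lin-1 did not differ beyond the larger of their SDs. The proNeu-1 and IG2 cells, which had the most Cebpe, also had the most genes detected, by the medians above. Cells without a state had a higher Cebpe mean than Multi-Lin-1 cells and a lower median of genes detected. That higher mean rested on 3 of 27 cells with Cebpe detected. Among cells with 3000 to 4500 genes detected (10 proNeu-1, 22 IG2, 7 without a state and 10 Multi-Lin-1), the differences were 4.50 for proNeu-1 minus Multi-Lin-1 and 2.41 for IG2 minus Multi-Lin-1. For no state minus Multi-Lin-1 the difference in this window was -0.08. The part of genes detected in these differences was not tested.

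A step of 2 log2 units was used to count differences between states. For proNeu-1 minus Multi-Lin-1, 1 of 5 members (Cebpe) differed by that much, against 15.9% of all 8044 genes. For IG2 minus Multi-Lin-1, again 1 of 5 (Cebpe) passed, against 9.50% of genes in either direction and 9.20% higher in IG2. For proNeu-1 minus IG2, 0 of 5 passed, against 3.87% of genes in either direction and 2.70% higher in proNeu-1. For no state minus Multi-Lin-1, 0 of 5 passed, against 2.09% of genes. Comparisons that share the Multi-Lin-1 cells are not independent of each other.

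**Figure D2:**
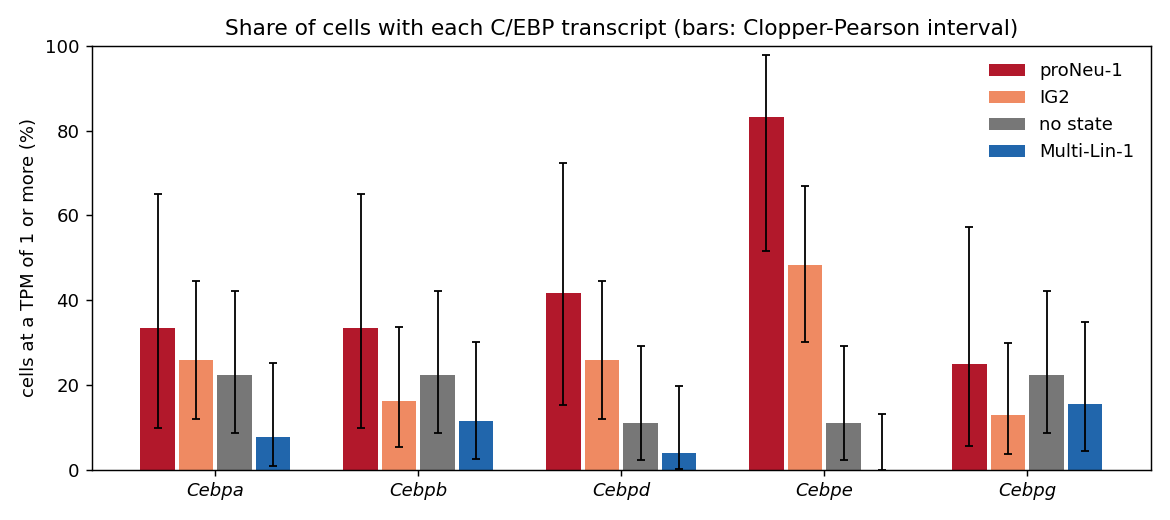
Share of cells at a TPM of 1 or more (vertical axis, percent) for each gene (horizontal axis) and deposited state (colours), with Clopper-Pearson 95% intervals as error bars. For Cebpe the shares were 83.3% in proNeu-1, 48.4% in IG2, 11.1% in cells without a state and 0% in Multi-Lin-1, while the intervals of the other 4 genes overlapped among the states.

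Cebpd had the same order of states as Cebpe at lower levels. Its lowest, median and highest levels were 0, 0.76 and 15.45 TPM in proNeu-1, 0, 0 and 48.3 TPM in IG2, 0, 0 and 12.7 TPM in cells without a state and 0, 0 and 3.46 TPM in Multi-Lin-1 cells. It was detected in 5 of 12 proNeu-1 cells (41.7%, interval 15.2 to 72.3%), 8 of 31 IG2 cells (25.8%, 11.9 to 44.6%), 3 of 27 cells without a state (11.1%, 2.35 to 29.2%) and 1 of 26 Multi-Lin-1 cells (3.85%, 0.0973 to 19.6%). The groups overlapped. Mean log2 levels were 1.38 ± 1.48 in proNeu-1, 1.02 ± 1.75 in IG2, 0.22 ± 0.77 in cells without a state and 0.08 ± 0.42 in Multi-Lin-1 (SD over cells). Cebpd differed by 1.30 for proNeu-1 minus Multi-Lin-1 and by 0.94 for IG2 minus Multi-Lin-1, both smaller than the SD within the first state.

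Cebpa, the member tied to the formation of GMP, was not detected in most cells of any state. Its highest level was 88.96 TPM in proNeu-1, 43.3 TPM in IG2, 169.6 TPM in cells without a state and 129 TPM in Multi-Lin-1 cells, and the lowest and median levels were 0 in each. It was detected in 4 of 12 proNeu-1 cells (33.3%, interval 9.92 to 65.1%), 8 of 31 IG2 cells (25.8%, 11.9 to 44.6%), 6 of 27 cells without a state (22.2%, 8.62 to 42.3%) and 2 of 26 Multi-Lin-1 cells (7.69%, 0.946 to 25.1%). Mean log2 levels were 1.82 ± 2.64 in proNeu-1, 0.93 ± 1.52 in IG2, 1.0 ± 2.15 in cells without a state and 0.43 ± 1.49 in Multi-Lin-1, so no difference exceeded the spread over cells. Among cells with 3000 to 4500 genes detected, the Cebpa difference of no state minus Multi-Lin-1 was -0.73, against 0.57 over all cells of these groups. The 3 cells with the most Cebpa were not of the granulocytic states. Cell 76 had no state and carried 169.6 TPM of Cebpa beside 59628 TPM of Prss34 and 2059 TPM of Mcpt8, proteases of basophils, and 1776 TPM of Gata2. Cell 96, a Multi-Lin-1 cell, had 129 TPM of Cebpa with 578 TPM of Gata2. Cell 8 had no state and carried 121 TPM of Cebpa, with 8217 TPM of Mcpt8 and 1938 TPM of Ms4a2, a chain of the high-affinity IgE receptor. Prss34 in cell 8 was at 6.48 TPM. The next was cell 9, a proNeu-1 cell with 88.96 TPM of Cebpa, 201 TPM of Cebpe and 46982 TPM of Elane (neutrophil elastase). High Cebpa was thus recorded in cells rich in basophil transcripts and in cells rich in primary granule transcripts, and the markers were mixed. Cell 76 also had 1359 TPM of Mpo and 1825 TPM of Ms4a3, both of the primary granule list, and 2085 TPM of Gata1. Cell 96 had 4324 TPM of Mpo, with Mcpt8 at 0.98 TPM. Cell 8 had 45.15 TPM of Mpo, Ms4a3 listed at 0 and 532 TPM of Gata1. All 8 cells at 30 TPM or more of Cebpa had that much Mpo, against 78.1% of all cells. Of these 8, 6 had that much Ms4a3, against 61.5%.

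Cebpb was the member of lowest level. Its highest level was 3.39 TPM in proNeu-1, 2.17 TPM in IG2, 45.9 TPM in cells without a state and 5.39 TPM in Multi-Lin-1 cells. It was detected in 4 of 12 proNeu-1, 5 of 31 IG2, 6 of 27 cells without a state and 3 of 26 Multi-Lin-1 cells. Mean log2 levels were 0.66 ± 0.78 in proNeu-1, 0.26 ± 0.56 in IG2, 0.73 ± 1.47 in cells without a state and 0.31 ± 0.69 in Multi-Lin-1 (SD over cells), with all groups overlapping. The 3 highest cells had no state and carried basophil transcripts. Cell 56 had 45.9 TPM of Cebpb with 62985 TPM of Prss34 and 11183 TPM of Mcpt8. Cell 23 had 21.5 TPM of Cebpb with 1383 TPM of Mcpt8, but its Prss34, at 0.65 TPM, was below detection. Cell 31 had 5.60 TPM of Cebpb with 36949 TPM of Prss34 and 25317 TPM of Mcpt8. Mpo, a primary granule gene, stood at 10438, 9162 and 3986 TPM in cells 56, 23 and 31. Over all cells the rho of Cebpb with Prss34 was 0.23 and with Mcpt8 0.18, so these 3 cells did not represent a strong relation across cells.

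Cebpg differed from Cebpe in where its high cells lay. Its highest level was 15.9 TPM in proNeu-1, 208 TPM in IG2, 352 TPM in cells without a state and 10.8 TPM in Multi-Lin-1 cells, with medians of 0 throughout. It was detected in 3 of 12 proNeu-1, 4 of 31 IG2, 6 of 27 cells without a state and 4 of 26 Multi-Lin-1 cells. Mean log2 levels were 0.80 ± 1.43 in proNeu-1, 0.82 ± 2.05 in IG2, 1.37 ± 2.67 in cells without a state and 0.38 ± 0.94 in Multi-Lin-1. The difference of no state minus Multi-Lin-1 was 0.98, at percentile 94.5 of all genes, and was smaller than the SD within the cells without a state. Of the 7 cells at 30 TPM or more of Cebpg, 4 had no state and 3 were IG2. Cell 23, with 352 TPM, also held the second highest Cebpb. Cell 50 (211 TPM, no state) had 941 TPM of Gata1 and 5.63 TPM of Elane, while cell 47 (208 TPM, IG2) had 30643 TPM of Elane and 259 TPM of Gfi1, a repressor that acts in granulocyte precursors. High Cebpg was thus found in cells of opposite lineage markers.

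The cells at 30 TPM or more of Cebpe were more alike in primary granule genes. Of these 17 cells, 5 were proNeu-1, 10 were IG2 and 2 had no state. All 17 had at least 30 TPM of Mpo (myeloperoxidase) and of Ms4a3, a membrane protein of granulocyte-monocyte precursors, and 16 had that much Elane, against 78.1%, 61.5% and 56.2% of all 96 cells. Gata2, a factor of stem, mast and basophil cells, reached 30 TPM in 4 of the 17, against 48.96% of all cells. Ms4a2 reached it in 3 of the 17, also a lower share than in all cells. The basophil proteases were not lower: Mcpt8 reached 30 TPM in 7 of the 17, against 34.4% of all cells. Prss34 did so in 2 of the 17, against 9.38%. The highest Cebpe of all, 653 TPM, was in cell 87, an IG2 cell with 610 TPM of Spi1 (PU.1, a myeloid master factor) and Gfi1 listed at 0. Cell 4, a proNeu-1 cell, had 279 TPM of Cebpe with 270 TPM of Gfi1 and 581 TPM of Csf3r, the G-CSF receptor. Every proNeu-1 and IG2 cell had at least 30 TPM of Elane, Mpo and Ms4a3, so the contrast with all cells partly restates the states. The 17 cells were picked for their Cebpe level, so the comparison is a description.

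Members were next counted per cell. Of 96 cells, 35 had 0 members detected, 34 had 1, 18 had 2, 6 had 3 and 3 had 4, and 0 cells had all 5. Cells held 2.17 ± 1.34 members in proNeu-1, 1.29 ± 0.97 in IG2, 0.89 ± 0.85 without a state and 0.38 ± 0.57 in Multi-Lin-1 (SD over cells). All 3 cells with 4 members were proNeu-1: cells 9, 67 and 88. At least 2 members were detected in 8 of 12 proNeu-1, 10 of 31 IG2, 8 of 27 cells without a state and 1 of 26 Multi-Lin-1 cells. Cells without a state had a lower median of genes detected than Multi-Lin-1 cells and a higher mean count of members. In proNeu-1 and IG2 cells both were higher than in these groups. The part of genes detected in the count of members was not tested.

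**Figure D3:**
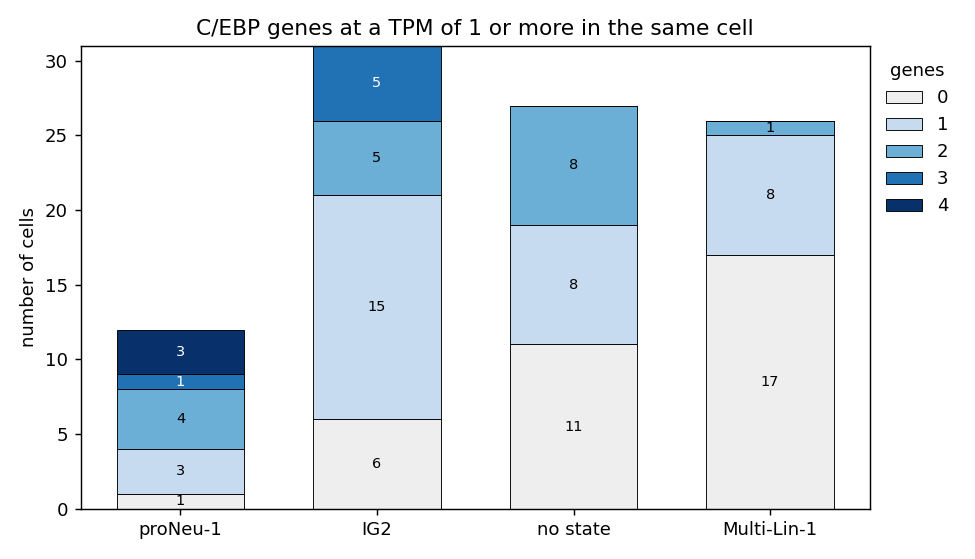
Number of cells (vertical axis) with 0 to 4 C/EBP genes at a TPM of 1 or more (shades), by deposited state (horizontal axis). Cells with 4 genes appear only among the 12 proNeu-1 cells, and 17 of 26 Multi-Lin-1 cells had none.

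The pair detected together most often was Cebpd with Cebpe, in 9 cells, which were 52.9% of the cells with Cebpd and 32.1% of those with Cebpe. Of these 9 cells, 4 were proNeu-1, 4 were IG2 and 1 had no state. Spearman's rho of Cebpd with Cebpe over the 96 cells was 0.352, the highest of the 10 pairs. It was 0.506 among the 48 cells whose labels carry the number 078 and 0.179 among the 48 that carry 079, a number whose meaning is not given. Within IG2 it was 0.00202, and with the number of genes detected taken out it was 0.224. The other 9 pairs had rho from 0.0124 to 0.183. Cebpa and Cebpe were together in 8 cells, 4 of them proNeu-1 and 4 IG2. The 4 proNeu-1 cells with Cebpa (9, 67, 69 and 88) all held Cebpb and Cebpe too. Among cells without a state, Cebpa and Cebpe were together in 0 cells, with 6 cells of Cebpa and 3 of Cebpe. The neighbours on chromosome 7, Cebpa and Cebpg, were together in 3 cells with rho 0.0915. All cells share 1 sample and a preparation, and zeros at low depth weaken such values, so they are descriptions.

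Relations to other genes were ranked by Spearman's rho over the 96 cells, counting genes at 0.4 or more in either direction. Cebpe had 121 genes at 0.4 or more (1.50% of 8043) and 6 at -0.4 or less (0.0746%). Cebpd had 33 (0.410%) and 1 (0.0124%), Cebpg had 3 (0.0373%) and 0 (0.00%), Cebpa had 1 (0.0124%) and 0 (0.00%), and Cebpb had 0 in either direction (0.00%). The order of these counts followed the members' own rho with the number of genes detected, which was 0.432 for Cebpe, 0.383 for Cebpd, 0.283 for Cebpa, 0.209 for Cebpg and 0.0757 for Cebpb, except that Cebpa and Cebpg changed places. With genes detected taken out, 16 genes remained at 0.4 or more for Cebpe and 1 for Cebpd.

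The genes most like Cebpe were B4galt6, a galactosyltransferase (rho 0.637), Rgcc, a regulator of the cell cycle (0.630), Mpo (0.620), Elane (0.607) and Ms4a3 (0.602). With genes detected taken out these values were 0.548, 0.524, 0.493, 0.482 and 0.489, and in the 078 and 079 cells all 5 were between 0.512 and 0.730. Within the 31 IG2 cells they were 0.260, 0.366, 0.339, 0.103 and 0.185. The gene least like Cebpe was Tmsb10, an actin-binding thymosin (-0.486), followed by Myh9, a nonmuscle myosin (-0.459), and Gata2 (-0.450). Within IG2 the rho with Gata2 was 0.0721. Among IG2 cells, in which Elane averaged 13.33 on the log2 scale, Cebpe ranged from 0 to 653 TPM.

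**Figure D4:**
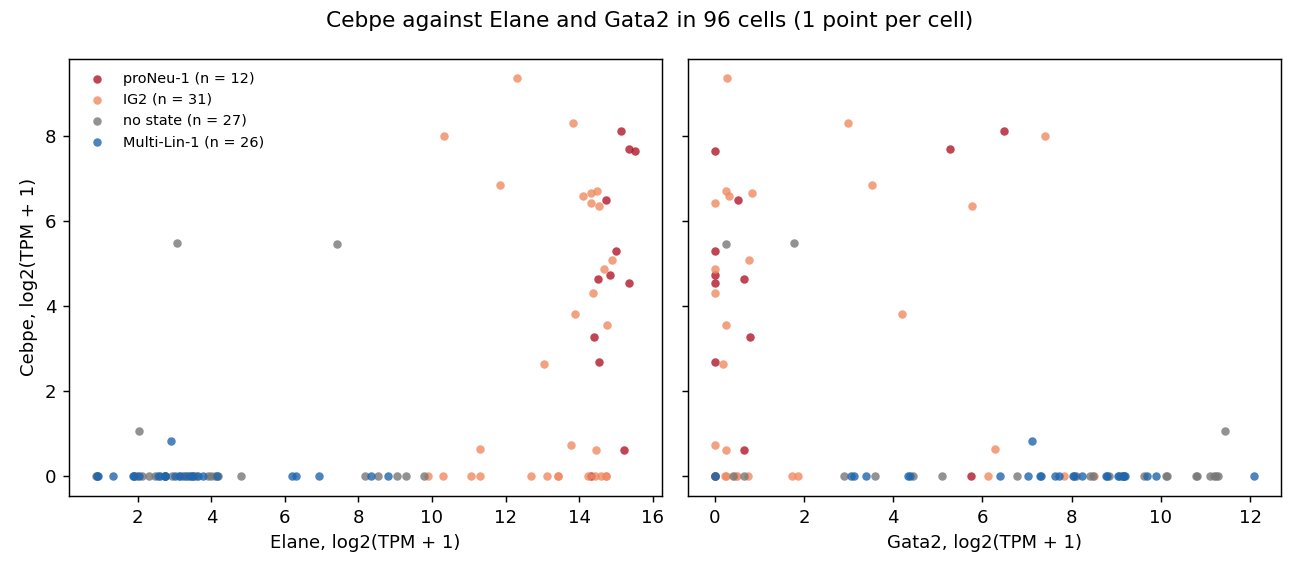
Cebpe (vertical axes) against Elane (left) and Gata2 (right), all as log2(TPM + 1), with 1 point per cell coloured by deposited state. Over 96 cells rho was 0.607 with Elane and -0.450 with Gata2, and within the 31 IG2 cells it was 0.103 and 0.0721.

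For Cebpd the leading genes were Ms4a3 (0.498), Ncam1, a cell adhesion molecule (0.480), Pglyrp1, a peptidoglycan recognition protein of neutrophil granules (0.478), Myg1 (0.475) and Mpo (0.469), and Tmsb10 was at -0.443. Ms4a3, Mpo and Tmsb10 were thus named for both Cebpd and Cebpe. Within IG2 the rho of Cebpd was 0.171 with Ms4a3, 0.376 with Mpo and 0.375 with Pglyrp1. For Cebpa the only gene was Fam160b1 (0.442), and for Cebpg they included Focad (0.468) and Cul2, a cullin scaffold of ubiquitin ligases (0.413). Fam160b1, Focad and Cul2 were detected in 11.5 to 17.7% of cells, so each value rests on few cells.

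Gene lists around the family were described beside it. Of the 12 primary granule genes, 11 passed the filter of detection in 10% of cells. For IG2 minus Multi-Lin-1, 9 of the 11 were higher by 2 log2 units or more, against 9.20% of all genes. The median difference was 4.54 over the list against 0.53 over all genes. Elane averaged 14.91 in proNeu-1, 13.33 in IG2, 4.20 in cells without a state and 3.58 in Multi-Lin-1 cells on the log2 scale. For proNeu-1 minus IG2, 3 of the 11 were higher, against 2.70% of all genes: Hp (haptoglobin), Clec12a (an inhibitory lectin receptor) and Prss57 (a granule serine protease). The list name is a label, and not every gene on it encodes a primary granule protein. Of the 11 genes, 9 had a rho of 0.4 or more with Cebpe, against 1.50% of all genes, and 8 with Cebpd, against 0.410%. With Cebpa, Cebpb or Cebpg the count was 0, against 0.0124%, 0.00% and 0.0373% of all genes. Within the IG2 cells none of the 11 reached 0.4 with Cebpe, the values running from -0.286 (Mgst1) to 0.339 (Mpo). With genes detected taken out, Elane, Mpo, Ctsg and Ms4a3 stayed at 0.4 or more with Cebpe and the rest of the 11 did not. After the same step the rho of Cebpd was 0.377 with Ms4a3 and 0.306 with Mpo. The list values over 96 cells thus in part restate the states and the genes detected.

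The genes listed as secondary granule and neutrophil genes, several of which need C/EBPε, were unevenly detected. Of 13 genes, 6 were detected in 0 cells (Ltf, Camp, Mmp9, Cd177, Chil3 and Retnlg). The filter was passed by 3 of the 13 (S100a8, S100a9 and Padi4), against 8044 of the 23955 genes. The share of all genes detected in 0 cells was not taken, so the count of 6 is a description. S100a8 was detected in 10 of 12 proNeu-1 cells. Lcn2, which encodes lipocalin, was detected in 2 of 12 proNeu-1, 6 of 31 IG2, 1 of 27 cells without a state and 0 of 26 Multi-Lin-1 cells. Ngp, the neutrophilic granule protein, was detected in 3 of 96 cells. S100a8, a calcium-binding protein of neutrophils, averaged 7.18 in proNeu-1, 1.17 in IG2, 0.62 in cells without a state and 2.21 in Multi-Lin-1 cells, and its rho with Cebpe was 0.27. S100a9 averaged 1.13, 0.12, 0.28 and 1.58 in the same order, highest in Multi-Lin-1, and its rho with Cebpe was -0.03. Padi4, an enzyme of neutrophil chromatin release, was detected in 5 of 12 proNeu-1, 4 of 31 IG2, 1 of 27 cells without a state and 2 of 26 Multi-Lin-1 cells.

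Among 18 regulators and cofactors of the family, 17 were in the table and 11 passed the filter. For IG2 minus Multi-Lin-1, 2 of the 11 were higher by 2 log2 units or more, against 9.20% of all 8044 genes. Spi1, which encodes PU.1, averaged 4.48 in proNeu-1, 3.94 in IG2, 1.39 in cells without a state and 1.80 in Multi-Lin-1, and its rho with Cebpe was 0.42. Gfi1 averaged 2.52, 2.36, 0.06 and 0.11 in the same order, and its rho with Cebpe was 0.30 over all cells and -0.30 within IG2. Trib2, a pseudokinase that directs C/EBPα to degradation, was detected in 0 of 12 proNeu-1, 0 of 31 IG2 (up to 9.68% is possible at a count of 0), 8 of 27 cells without a state and 1 of 26 Multi-Lin-1 cells. Its relative Trib1 was detected in 0, 5, 2 and 1 cells of the same groups.

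Of 13 possible bZIP partners, 7 passed the filter. Atf4, the partner of C/EBPγ in the amino acid response, averaged 6.29 in proNeu-1, 6.28 in IG2, 4.07 in cells without a state and 4.09 in Multi-Lin-1. It was the 1 partner of these 7 higher by 2 log2 units or more for IG2 minus Multi-Lin-1 (difference 2.19), against 9.20% of all genes. Its rho with Cebpg was 0.01. Batf averaged 3.61 in proNeu-1, 1.71 in IG2, 1.19 in cells without a state and 1.03 in Multi-Lin-1. Fos and Jun, the AP-1 subunits, did not pass the step for IG2 minus Multi-Lin-1. For proNeu-1 minus Multi-Lin-1, 2 of the 7 partners were higher by the step (Atf4 by 2.19 and Batf by 2.57). In that comparison 1 was lower (Jun at -2.45), and 15.9% of all genes passed the step in either direction. Fos averaged 5.66 in proNeu-1, 5.49 in IG2, 7.40 in cells without a state and 6.97 in Multi-Lin-1, and Jun 3.95, 5.11, 5.90 and 6.39. Ddit3, which encodes the C/EBP-like protein CHOP, was detected in 14 cells. Cebpz, which carries the name but is no bZIP family member, was detected in 55.

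Of 14 genes of the amino acid response, 9 passed the filter. For IG2 minus Multi-Lin-1, 5 of the 9 were higher by 2 log2 units or more, against 9.20% of all genes. They were Asns (asparagine synthetase), Psat1 and Phgdh of serine synthesis, Shmt2 of mitochondrial serine use and Eif4ebp1, a translation inhibitor. Asns averaged 3.32 in proNeu-1, 2.51 in IG2, 0.78 in cells without a state and 0.50 in Multi-Lin-1. The median rho of the 9 genes was 0.05 with Cebpg and 0.21 with Cebpe. The cells without a state, which held 4 of the 7 cells at 30 TPM or more of Cebpg, had list values close to those of Multi-Lin-1, with a median difference of -0.16 over the 9 genes. Phgdh was the 1 gene of the 9 lower by 2 log2 units or more there (difference -2.55), against 2.09% of all genes in either direction. Asns (0.28), Psat1 (-0.03) and Shmt2 (-0.11) differed little.

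The receptors that feed into the family were unequal. Of 7 cytokine receptor genes, 4 passed the filter. For IG2 minus Multi-Lin-1, 0 of the 4 differed by 2 log2 units or more, against 9.50% of all genes in either direction. Csf3r averaged 3.95 in proNeu-1, 3.41 in IG2, 0.82 in cells without a state and 2.16 in Multi-Lin-1. Il6ra was detected in 1 cell and Csf1r, the M-CSF receptor, in 4.

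Markers of other cells were described by state. The summed level of 9 mast cell and basophil genes ran from 23.3 to 1355 TPM in proNeu-1, 21.5 to 6275 TPM in IG2, 0.58 to 78857 TPM in cells without a state and 0 to 9026 TPM in Multi-Lin-1 cells, with Cma1 detected in 0 cells. The list split for IG2 minus Multi-Lin-1, with 2 genes higher by the step (Hdc by 3.58 and Mcpt8 by 2.75) and 3 lower (Gata2 at -5.24, Ms4a2 at -2.72 and Cpa3 at -2.22). Of all genes, 9.20% were higher by the step and 9.50% passed it in either direction. The summed level of 10 erythroid and megakaryocyte genes ran from 1.25 to 362 TPM in proNeu-1, 0 to 1243 TPM in IG2, 0 to 17377 TPM in cells without a state and 0.50 to 5676 TPM in Multi-Lin-1 cells. Of its 6 genes past the filter, 2 were lower by the step for IG2 minus Multi-Lin-1, against 9.50% of all genes in either direction. For proNeu-1 minus Multi-Lin-1, 3 were lower and 1 (Tfrc, by 2.68) was higher, against 15.9%. For no state minus Multi-Lin-1, 3 were higher, against 2.09%. The rho of Tfrc with Cebpe was 0.40. Of 10 lymphoid genes, 7 were detected in 0 cells, while Nkg7, a granule protein that also stands in the primary granule list, was detected in 93 and Cd79b in 25 of 96. Of 7 stromal and endothelial genes, 4 were detected in 0 cells, while Lepr was detected in 88 and Pecam1 in 30. The share of all genes detected in 0 cells was not taken, so the lymphoid and stromal counts are descriptions. Of 10 monocyte and dendritic cell genes, 4 passed the filter, and 1 of the 4 passed the step in these comparisons. That gene was Ly6c2, a surface antigen of monocytes, which differed by 6.37 for proNeu-1 minus IG2 and 4.07 for IG2 minus Multi-Lin-1 and had a rho of 0.46 with Cebpe. Of all genes, 3.87% and 9.50% passed the step in either direction in these comparisons. Zeb2 differed by 0.55 and 1.02, Klf4 by 0.53 and -0.42 and Tcf4 by -0.54 and 0.53 in the same comparisons. The part of these markers in the levels of the C/EBP genes was not tested.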

How the data were processed

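RNA of 96 single cells was measured on a Fluidigm C1 chip. The authors deposited log2 values for 23955 genes, named RSEM TPM. They were read as log2(TPM + 1), a pseudocount of 1, because the sum of back-transformed values per cell had a median of 1e+06. Splicing was deposited as fractions (percent spliced in) for 80855 events, and 0 of them belong to the C/EBP genes. Per the submitters' processing notes, STAR, RSEM and Bowtie2 were run and the genome builds were mm10 and mm9. Their roles are not given in the sources used here. State names come from a deposited annotation by the authors, and cells missing from it are called cells without a state. Cell names carry 078 or 079. Columns of other cells (1142 of splicing and 511 state entries) were not used.

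The 5 members were described by the share of cells at a TPM of 1 or more with Clopper-Pearson intervals, by means and SDs over cells, and by Spearman's rho. Genes detected in at least 10% of cells (8044) served as background, with steps of 2 log2 units and rho of 0.4. Genes named beside the members are members of gene lists, or the up to 5 genes of highest and 3 of lowest rho past 0.4 with the same sign in the 078 and 079 cells. One gene that this rule names is not reported here. Single cells and their markers were chosen after their values were seen. The members and lists were chosen with earlier results of these data known. Reads per cell are unknown, and doublets were not called, since this needs counts. No test was made, because the cells form 1 sample. Scripts were tested on simulated data and ran under Python 3.11.15 with SciPy 1.17.1, pandas 2.3.3, NumPy 2.4.6 and matplotlib 3.10.9. Alternatives changed the level of detection, pseudocount, cells used, coefficient, filter and step.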

Additional observations from a re-analysis of the deposited data

How the results depend on the processing

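The differences between states in the 5 members kept within 1 SD of their values in the 078 cells, the 079 cells, cells with 3000 to 4500 genes and cells with 2000 or more genes, but not under every pseudocount. With a pseudocount of 0.1 the differences were 1.27 for Cebpb in proNeu-1 minus IG2, and for proNeu-1 minus Multi-Lin-1 1.16 for Cebpb, 3.10 for Cebpd and 7.42 for Cebpe. With a pseudocount of 10 they were 0.33 for Cebpd and 2.18 for Cebpe in proNeu-1 minus Multi-Lin-1. For values above 0, the shares of cells were 31.2% for Cebpa and 28.1% for Cebpb and for Cebpg. From 5 TPM, Cebpb was in 4.17% of cells. From 30 TPM the shares were 8.33% for Cebpa, 1.04% for Cebpb and for Cebpd, 17.7% for Cebpe and 7.29% for Cebpg.

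The number of genes with a rho of 0.4 or more depended on the cells used, and fewer cells widen the scatter of rho. In the 078 cells it was 53 for Cebpa, 22 for Cebpb, 94 for Cebpd, 229 for Cebpe and 44 for Cebpg. In the 079 cells it was 133, 60, 239, 327 and 113 in the same order. In cells with 3000 to 4500 genes it was 25 for Cebpa, 17 for Cebpb, 134 for Cebpd and 29 for Cebpg. In cells with a state it was 23, 4, 86 and 21 for these genes, and by Pearson's r 6, 3, 13 and 5. With genes detected taken out it was 1 for Cebpd and 16 for Cebpe.

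With a step of 1 log2 unit, the list counts that moved by over 1.5 times were, for genes higher in proNeu-1 minus IG2, 8 primary granule genes, 1 gene each of the bZIP partners, the amino acid response and the erythroid genes, and 2 each of the regulators, secondary granule, lymphoid and housekeeping genes. The counts that moved for IG2 minus Multi-Lin-1 were 1 each of the cytokine receptors, erythroid and lymphoid genes, 2 monocyte genes and 3 GMP gate genes. With no filter on low values the counts of higher genes in these lists were the same, except that the primary granule genes had 4 for proNeu-1 minus IG2, Fcnb being the added gene. Small differences changed sign: in cells with 3000 to 4500 genes, Cebpa was -0.07 for IG2 minus Multi-Lin-1 and -0.73 for no state minus Multi-Lin-1, and Cebpe was -0.08 for no state minus Multi-Lin-1. In the 079 cells Cebpg was 0.14 for proNeu-1 minus IG2 and Cebpd -0.05 for no state minus Multi-Lin-1 (just below 0 with 2000 or more genes), in the 078 cells Cebpb was 0.12 for IG2 minus Multi-Lin-1, and with a pseudocount of 0.1 Cebpg was 0.22 for proNeu-1 minus IG2. The cause of these shifts was not tested. No paired analysis was possible because the cells are 1 sample. Depth is unknown, so a gene listed at 0 is not shown to be absent.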
